A study of Homo sapiens with 72 samples.

Results

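Cycloheximide stops ribosomes on the mRNA. When it is added together with triptolide, which stops the synthesis of new mRNA, some mRNAs are lost more slowly than with triptolide alone. The loss of such an mRNA may depend on ongoing translation, directly or through a short-lived protein. Only levels were measured here, and the cause of a difference between them was not tested. The comparison described here is the 3 h time point in A375 cells, an established human melanoma line, that carried the control siRNA siGL2. It used 6 of the 72 libraries of the series, 3 from cells given 25 µM triptolide (T arm) and 3 from cells given 25 µM triptolide with 100 µg/ml cycloheximide (TCHX arm). The libraries were taken by their labels, and this comparison was singled out with earlier results of these data known. All 6 cultures had been transfected 42 h before the drugs, and GL2 siRNAs are designed against firefly luciferase, so no gene of the cell was meant to be silenced. The RNA was cytoplasmic, and QuantSeq libraries read the 3′ end of polyadenylated RNA. The labels do not say whether the replicates were separate cultures, so p-values measure the spread between these libraries.

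The mRNAs of immediate early genes, of feedback inhibitors of signalling and of stress response genes are known to be short-lived. Many carry AU-rich elements in the 3′ untranslated region (3′UTR), which are bound by proteins of the ZFP36 family and lead to removal of the poly(A) tail. Their build-up after cycloheximide, called superinduction, is a long-known effect. Nonsense-mediated decay and the decay set off by slowly decoded codons also act only on mRNAs that ribosomes are reading.

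The 6 libraries held between 7650793 and 13958777 counts, and their log2 levels correlated more closely within an arm (r of 0.980 to 0.987 across genes) than between arms (0.959 to 0.972). Counts were scaled to 197 stable mRNAs, since the total of a library does not show how much mRNA a cell holds. All levels below are such normalised counts, and all differences are relative to those mRNAs. Pigment cell genes were expressed, with SOX10 and MITF at 141 to 310 CPM (counts scaled to an equal total in each library), whereas MLANA, TYR, TYRP1 and PRAME lay below 2 CPM. Of the keratinocyte markers KRT5, DSG3, TP63 and IVL had 0 counts in all 6 libraries, and KRT10 alone made up nearly all of the list's summed level of 144 to 229 CPM. The fibroblast list summed to 8.53 to 13.8 CPM in T and 9.85 to 13.0 in TCHX.

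Of 12121 genes tested, 1527 were higher in TCHX than in T, which is 12.6% of all genes, and 493 were lower, which is 4.07% (edgeR's quasi-likelihood test with Benjamini-Hochberg adjustment, threshold 0.05, with the replicate number as a block). The rises were larger than the falls. Of the mRNAs that rose, 489 did so by at least 2-fold, 144 by at least 4-fold and 36 by at least 8-fold, whereas 15 of those that fell did so by at least 2-fold. When the test asked for a change of more than 1.5-fold, 350 genes were higher, which is 2.89%, and 5 were lower. All 3 TCHX libraries lay above all 3 T libraries for 1333 of the 1527 higher genes and for 2091 genes (17.3%) of all tested. They lay below the T libraries for 199 of the 493 lower genes and for 630 genes (5.20%) of all tested. The median log2 fold change of all genes tested was 0.04. In bulk RNA, less RNA per cell and fewer cells of a kind cannot be told apart.

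The falls depended on how the data were fitted and the rises less so. Without the replicate block 791 genes were higher and 27 lower. With TMM scaling, which centres the bulk of genes, 1315 were higher and 924 lower, so that the share of calls that were rises went from 75.6% to 58.7%. Without replicate 3 there were 934 rises and 178 falls, and without replicate 1 there were 247 falls. The direction and size of the rises of strongly kept mRNAs are therefore described gene by gene, and small changes of lists are given with their counts under other fits.

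**Figure D1:**
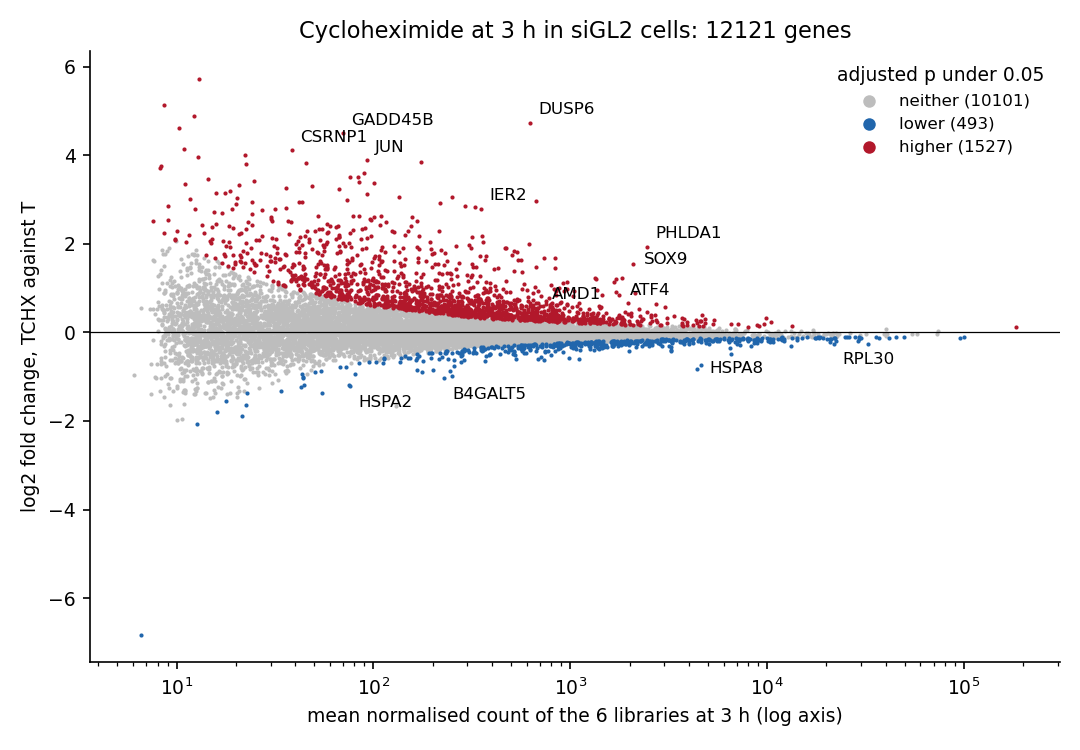
Log2 fold change of TCHX against T in siGL2 cells at 3 h (vertical) against the mean normalised count of the 6 libraries (horizontal, log axis) for 12121 genes, coloured by the edgeR call. The 1527 rises in red reach from abundant mRNAs such as PHLDA1 to scarce ones, and most of the 493 falls in blue lie close to 0.

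The mRNAs with the smallest p-values encode brakes on growth factor signalling and short-lived regulators of transcription. DUSP6, a cytoplasmic phosphatase that inactivates ERK (chromosome 12, 89347235 to 89352501, minus strand, GRCh38), had normalised counts of 50.3, 55.1 and 29.6 in the T libraries and 1054, 1353 and 1221 in the TCHX libraries. Its level was 26.5-fold higher with cycloheximide (log2 4.73 ± 0.14 SE, edgeR adjusted p = 2e-32), and no T library came near a TCHX library. PHLDA1, a pleckstrin homology protein induced by growth factors, was an abundant mRNA with 998.5, 1334 and 745 counts in T and 3638, 4686 and 3303 in TCHX. It rose by 1.94 ± 0.07 on the log2 scale (edgeR adjusted p = 1.83e-29). SOX9, a transcription factor of neural crest and cartilage, had 1247, 1384 and 632.5 counts in T and 3277, 3455 and 2506 in TCHX, with all TCHX libraries above all T libraries. One further transcript among these 6 smallest p-values is an uncharacterised noncoding locus. The remaining pair were IER2, an immediate early gene, and HES1, the Notch-responsive repressor that limits its own transcription. IER2 had 64.4, 104.6 and 97.1 counts in T and 506.5, 820.3 and 520.4 in TCHX. HES1 had 76.5, 110.2 and 58.0 counts in T and 507.5, 694 and 518.8 in TCHX, so that both were about 7 times higher with the drug.

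After DUSP6, the largest rises among the named mRNAs with at least 50 counts in the higher arm were found in transcripts that had almost vanished in the T arm. GADD45B, a stress-induced activator of p38 and JNK signalling, had 12.1, 1.102 and 3.55 counts in T and 99.9, 178.3 and 123.8 in TCHX. Its change was 22.5-fold (log2 4.49 ± 0.39, edgeR adjusted p = 2.29e-13). JUN, the AP-1 subunit, had 9.06, 17.6 and 8.29 counts in T against 143.9, 252.5 and 124.6 in TCHX, a 14.8-fold rise. ADM, which encodes the peptide hormone adrenomedullin, had 26.2, 22.03 and 17.8 counts in T and 270.8, 414.4 and 291.0 in TCHX. In each of these mRNAs the arms stood far apart. Others named by size of change were CSRNP1, TEX19, MAP3K14, RGS2, IER5, PLEKHF1 and ZNF773, with log2 fold changes from 3.42 (ZNF773) to 4.11 (CSRNP1). CSRNP1 is a nuclear protein induced by AXIN1, MAP3K14 is the NF-kB-inducing kinase and RGS2 shortens G protein signalling. The T libraries of TEX19 held 0, 0 and 8.29 normalised counts and those of CSRNP1 6.04, 6.61 and 0, so the size of these folds rests on very few reads.

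**Figure D2:**
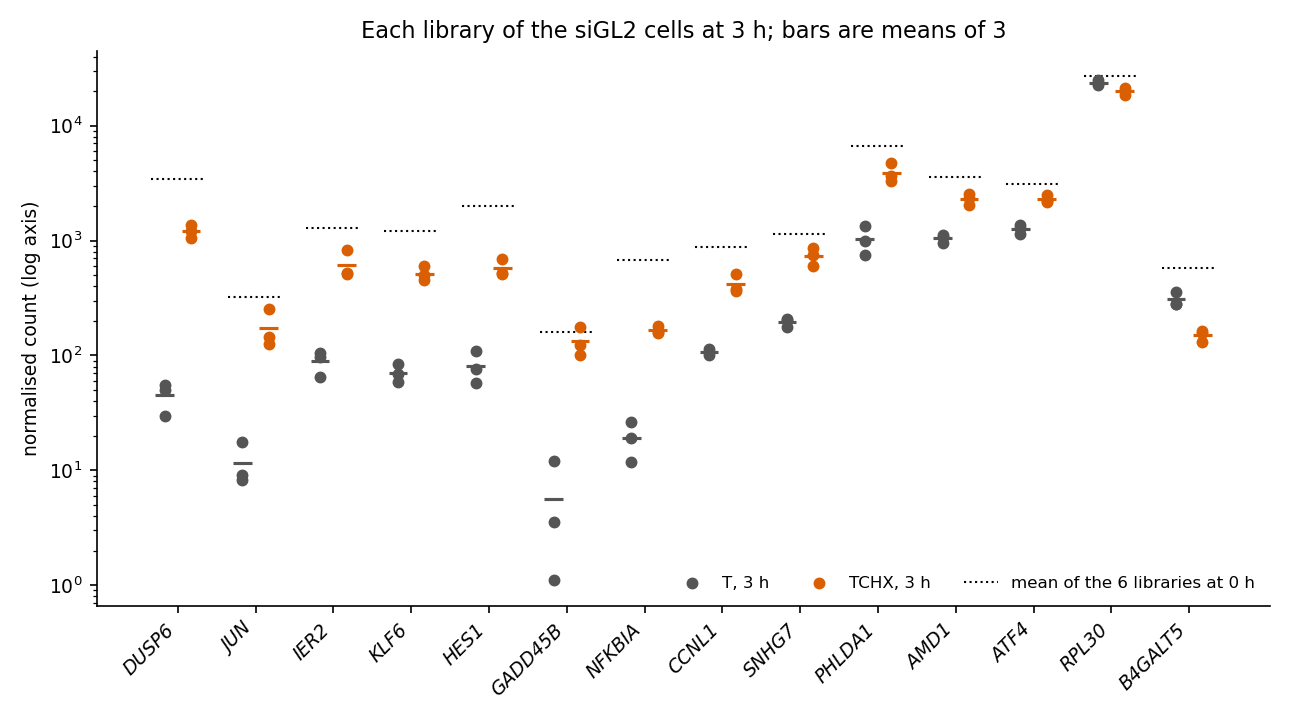
Normalised count (log axis) of 14 mRNAs in each siGL2 library at 3 h, T in grey and TCHX in orange, with bars at the mean of 3 and dotted lines at the mean of the 6 libraries at 0 h. In the first 12 genes every TCHX library lies above every T library, and in RPL30 and B4GALT5 every TCHX library lies below.

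Some of the strongly kept mRNAs show the element named above in their 3′UTR. The 9-base core of AU-rich elements, TTATTTATT in the letters of DNA, was sought on the sense strand in the annotated 3′UTRs of 10700 coding genes. For each gene the longest 3′UTR among its protein-coding transcripts was used, which may not be the one these cells express. The windows below hold it in capitals within 30 bases and are shown because these mRNAs rose by 1.24 to 4.11 on the log2 scale. They come from GENCODE v44 on GRCh38 and are written 5′ to 3′ along the mRNA.
CSRNP1 (chr3:39142884-39142913, minus strand): ttctctggatTTATTTATTtgttttaactt
IER5 (chr1:181092443-181092472, plus strand): gtgtcttcctTTATTTATTtatttatttaa
PHLDA1 (chr12:76029786-76029815, minus strand): tgatttatgaTTATTTATTagttttttttt
ZNF281 (chr1:200406106-200406135, minus strand): ggggcatgcaTTATTTATTatacatggcct
SOX9 (chr17:72125498-72125527, plus strand): cttgctaaaaTTATTTATTttgtaaggaga
MCL1 (chr1:150574254-150574283, minus strand): cttgatttatTTATTTATTatttttttttt
ZFP36L1 (chr14:68788076-68788105, minus strand): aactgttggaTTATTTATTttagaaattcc
IER5 holds 3 overlapping copies and MCL1 holds 2, while the 3′UTRs of DUSP6, JUN, GADD45B, IER2, HES1 and KLF6 hold none in the transcripts used. Over all coding genes tested the core was present in 10.5% of 3′UTRs. It was present in 12.9% of the mRNAs called higher, in 14.3% of those higher by more than 1.5-fold and in 8.65% of those called lower.

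The share of mRNAs called higher was a few points larger among those with a core. It was 13.2% of 9576 genes with no core, 15.97% of 839 genes with 1 and 18.2% of 285 genes with 2 or more. These shares were 6.76%, 9.65% and 9.12% without the replicate block, so that they no longer rose with the number of cores. Longer 3′UTRs hold more cores, with a median length of 1464 bases in the first of these classes and 4153 in the last. Within 4 equal classes of 3′UTR length, genes with a core were called higher more often in each class, at 29.1% against 10.7% in the shortest, 16.7% against 15.6%, 18.7% against 13.9%, and 14.3% against 12.4% in the longest. In the second class the share higher by more than 1.5-fold ran the other way, at 2.98% with a core and 4.07% without. Genes with a core were also called lower more often in the second class (5.95% against 4.35%) and in the longest (4.16% against 3.23%). These differences were not tested. The shortest class had 55 genes with a core, of which 16 were called. A match to these letters is not a measured binding site.

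Coding length differed most between the mRNAs called lower and the rest. The mRNAs called higher had a median coding length of 1617 bases and those called lower one of 887, against 1422 for all coding genes tested. From the shortest to the longest of 4 equal classes of coding length, the share called lower was 8.80%, 4.65%, 2.36% and 1.87%, and the share called higher was 9.06%, 13.5%, 15.6% and 15.96%. The rises of more than 1.5-fold did not follow this order, with shares of 2.38%, 3.68%, 3.97% and 2.29% and a median coding length of 1440 bases. Across genes, Spearman's rho of the log2 fold change with coding length was 0.16, and with the A or T share of the 3′UTR it was −0.065. With 3′UTR length, with G or C at the third codon position and with the counts of ATTTA and of the core it was between −0.02 and 0.04. Genes share libraries and differ in depth, so these are descriptions. The mRNAs higher by more than 1.5-fold had 66.2% G or C at the third codon position in the median, against 57.4% in all genes and 54.2% in those called lower. The median A or T share of their 3′UTRs was 56.4%. It was 58.0% in all mRNAs called higher, 58.2% in all genes and 61.7% in those called lower.

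The functions served by the kept mRNAs were followed in gene lists, each read against the 12.6% of all genes that were called higher. In lists with 0 members called in a direction by edgeR, at most 2 members had an unadjusted p under 0.05 in that direction and DESeq2 called 0. Transcription factors of the immediate early response stood first. Of the 20 tested AP-1 and immediate early genes 15 rose and 0 fell, with a median log2 fold change of 1.25 against 0.04 over all genes. JUN, IER5, IER2, ATF3, JUNB, NR4A2, CCN1, FOSL1, FOSL2, EGR1 and EGR3 were among them. FOS, the partner of JUN, had 8.05, 11.02 and 16.6 counts in T and 21.98, 45.7 and 21.3 in TCHX. Its TCHX libraries all lay above its T libraries, yet the change did not pass the test (log2 1.28, edgeR adjusted p = 0.0803). FOSL1, the AP-1 subunit that ERK signalling sustains in melanoma, had 339.2, 642.2 and 141.0 counts in T and 935.2, 1370 and 587.6 in TCHX. Its groups overlapped although TCHX was higher within each replicate, and its adjusted p went from 1.75e-15 to 0.035 without the replicate block. IER3 was not tested for want of counts.

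Feedback inhibitors of the ERK pathway, which BRAF-mutant melanoma cells are known to express strongly, showed the same direction. Of 18 tested 11 rose and 0 fell, with a median of 1.30. The phosphatases DUSP1 (4.88), DUSP6 (4.73), DUSP5 (1.51), DUSP10 (1.38) and DUSP4 (0.91) rose, whereas DUSP2 (1.47) and DUSP7 (0.46) did not pass the test (edgeR adjusted p = 0.1002 and 0.0848). DUSP1 (edgeR adjusted p = 3.88e-05) did not meet the naming rule for the largest rises, which asks for arms apart and at least 50 counts. Rises were also seen for the Sprouty proteins SPRY2 (2.18), SPRY4 (1.63) and SPRY1 (1.53), which act at receptor tyrosine kinases. SPRY2 had 105.7, 190.6 and 97.1 counts in T and 533.5, 679.8 and 530.3 in TCHX. The ETS transcription factors of the same feedback programme did not pass the test, with log2 fold changes of −0.07 for ETV4, −0.08 for ETV5 and −0.25 for ETV1. SPRED1 and SPRED2 likewise gave 0.17 and −0.31, and SPRED3 rose by 1.22.

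Among 24 tested genes of the GADD45, p53 and integrated stress responses 15 rose and 1 fell, with a median of 1.12. Besides GADD45B these included DDIT4 (3.39), an inhibitor of mTORC1, BTG2 (3.15), an antiproliferative adaptor of deadenylation, DDIT3 (2.53), the transcription factor CHOP, and BBC3 (2.03), the proapoptotic protein PUMA. GADD45A, a known target of nonsense-mediated decay, had 125.8, 143.2 and 82.9 counts in T and 257.8, 409.4 and 347.5 in TCHX (log2 1.52). PPP1R15A, which directs the dephosphorylation of eIF2α, rose by 1.72 and MCL1, the labile antiapoptotic protein, by 1.42. ATF4, the main transcription factor of the integrated stress response, rose by 0.85 ± 0.07 (edgeR adjusted p = 9.24e-15). ATF4 had 1291, 1368 and 1132 counts in T and 2488, 2215 and 2150 in TCHX, and the arms did not overlap. CDKN1A, the p53-induced inhibitor of cyclin-dependent kinases, went the other way and fell by 0.67. MDM2 gave 0.01 without passing the test. TBL2 and UPP1 were named, like GADD45A, as known decay-regulated or short-lived mRNAs. They gave −0.005 and −0.11 and did not pass either.

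Other short-lived nuclear regulators were also kept in the presence of cycloheximide. Of 39 tested 22 rose and 1 (E2F1) fell, with a median of 0.62. KLF6, a zinc finger factor, had 68.4, 84.8 and 59.2 counts in T and 499.6, 597 and 449.1 in TCHX (log2 2.86, edgeR adjusted p = 1.06e-21). MYC had 8.05, 5.51 and 0 counts in T and 39.0, 41.4 and 27.9 in TCHX, an 8.23-fold rise on few reads. KLF4 (2.85), SERTAD1 (2.42), ID1 (2.26), KLF10 (2.15), ID2 (1.79) and BHLHE40 (1.72) were further members that rose. Genes with a ZNF name, most of which encode KRAB zinc finger repressors, formed the largest group, with 127 of 335 tested higher, 1 lower and a median of 0.66. Without the replicate block 75 of them were higher. ZNF503 had 52.3, 106.8 and 65.2 counts in T and 356.7, 368.1 and 343.4 in TCHX, and ZNF281 and ZNF581 rose by 1.90 and 2.18.

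In the NF-kB list, 5 of 17 tested genes rose and 0 fell, with a median of 0.32. The 5 were the inhibitors NFKBIA, NFKBIE and TNFAIP3, the coactivator BCL3 and the transcription factor IRF1. NFKBIA, which encodes IκBα, had 19.1, 26.4 and 11.8 counts in T and 180.8, 156.9 and 159.8 in TCHX (8.68-fold). Cytokine and chemokine mRNAs did not pass the test, with log2 fold changes of 0.77 for CXCL1, 0.56 for IL11, −0.50 for CXCL8 and −0.61 for CCL20.

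**Figure D3:**
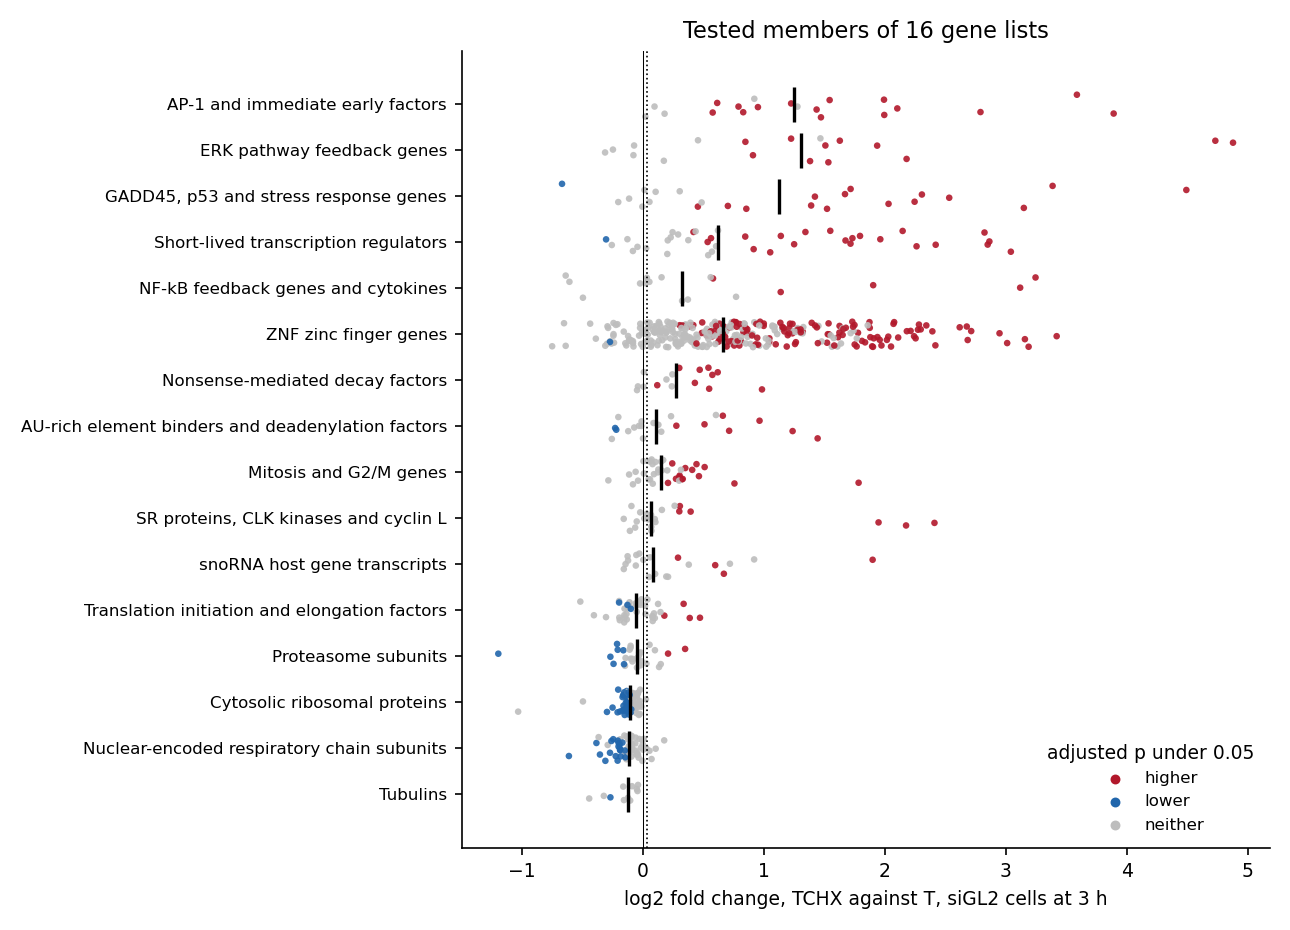
Log2 fold change of TCHX against T at 3 h for the tested members of 16 gene lists, 1 point per gene, coloured by the edgeR call, with a bar at each list's median and a dotted line at the median of all genes tested (0.04). The first 6 lists reach far to the right, with 15 of 20 immediate early genes and 127 of 335 ZNF genes called higher, whereas ribosomal protein and respiratory chain mRNAs lie in a narrow band left of 0.

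mRNAs tied to nonsense-mediated decay moved less. Of the 20 tested hosts of small nucleolar RNAs, whose spliced transcripts are textbook substrates of that pathway, 4 rose and 0 fell, and the median was 0.08. The number that rose was 2 without the replicate block, 2 with DESeq2 and 2 when genes had to be stable at both later times to enter the scaling (the stricter stable genes below). That scaling rests on 8 genes, and with it the median of all genes tested was 0.11 instead of 0.04. SNHG7 had 202.3, 177.3 and 209.7 counts in T and 867.2, 741.8 and 600.8 in TCHX (log2 1.90). SNHG1 rose by 0.60, SNHG12 by 0.67 and GAS5 by 0.29, and without replicate 3 the last 2 no longer passed the test (edgeR adjusted p = 0.305 for SNHG12 and 0.153 for GAS5), nor without replicate 2 (0.0762 and 0.0581). With the 0 h difference subtracted GAS5 gave 0.098 (edgeR adjusted p = 0.732). SNHG15 gave 0.72 with an adjusted p of 0.0612. ZFAS1 (0.05), SNHG8 (0.06), SNHG6 (−0.14) and SNHG5 (−0.16) did not pass. These hosts overlap the genes of the small RNAs in their introns, and the strand setting of the read counting was not given in the sources used here.

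The factors of nonsense-mediated decay, several of which are known to be controlled by the pathway themselves, gave 9 higher and 0 lower of 16 tested with a median of 0.27, and 6 were higher without the replicate block and 3 with the stricter stable genes. SMG9 rose by 0.98, UPF2 by 0.57 and UPF1, the central helicase, by 0.54. UPF1 had 570.7, 553 and 529.5 counts in T and 799.3, 872.3 and 736.8 in TCHX, and all TCHX libraries exceeded all T libraries. SMG5 gave 0.01. Of 23 tested splicing regulators, some of which are known to carry poison exons or retained introns, 6 rose and 0 fell. In this list 4 rose without the block and 3 with the stricter stable genes. The members that rose most were the kinases CLK1 (2.41) and CLK4 (2.17) and cyclin L1 (CCNL1, 1.95), and CCNL1 had 100.7, 106.8 and 114.9 counts in T and 363.7, 512.1 and 377.8 in TCHX. RBM39, SRSF4 and SRSF5 rose by 0.30 to 0.39, and the other 17 did not pass, SRSF1, SRSF2, SRSF3 and SRSF7 lying between −0.10 and 0.07.

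The proteins that bind AU-rich elements and the deadenylation machinery gave 7 higher and 2 lower of 22 tested, with a median of 0.11. Adaptors and regulators were among the members that rose. TOB2 (1.44) and BTG1 (0.96) recruit the CCR4-NOT deadenylase, and ZFP36L1 (1.24) and ZFP36L2 (0.66) bind AU-rich elements. ZFP36L1 had 770.0, 1109 and 554.3 counts in T and 1678, 2109 and 1812 in TCHX. Of the deadenylation machinery itself, CNOT4 (0.71), PAN3 (0.51) and CNOT2 (0.28) also rose. CNOT1, CNOT6, CNOT7 and CNOT8 gave values between −0.20 and 0.00 and did not pass. ELAVL1 (HuR), which stabilises AU-rich mRNAs, fell by 0.22, and HNRNPAB fell by 0.23. In the list 4 rose and 0 fell without the replicate block, and DESeq2 gave the same counts.

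mRNAs of housekeeping machines showed no rise beyond a few members. Of 74 tested cytosolic ribosomal protein mRNAs 0 rose and 35 fell, and 73 of the 74 had a log2 fold change below 0, with a median of −0.11. The falls were small. RPL30 had 24786, 23594 and 22606 counts in T and 19929, 21200 and 18560 in TCHX (log2 −0.25 ± 0.03, edgeR adjusted p = 1.68e-07). Without the replicate block 0 of the 74 fell, with TMM scaling 55 did, and with the stricter stable genes 0 did and the median was −0.03. Of 67 nuclear-encoded respiratory chain mRNAs 0 rose and 20 fell, with a median of −0.12, while 1 fell without the block and 37 with TMM. NDUFB3, a subunit of complex I, fell by 0.61, and ATP5F1B, a subunit of ATP synthase, by 0.20. Of 31 proteasome subunits 2 rose (PSMD3 by 0.35 and PSMC1 by 0.21) and 7 fell, while 0 rose and 0 fell without the block. PSMC1 did not pass without replicate 1 or 2 (edgeR adjusted p = 0.0517 and 0.0669). The median of −0.05 became 0.03 with the stricter stable genes, while that of all genes tested went from 0.04 to 0.11. PSMC4, which had the largest fall of these (−1.20), had 57.4, 46.3 and 232.2 counts in T and 40.0, 42.1 and 34.4 in TCHX. That fall rested on the last T library and was −0.33 without replicate 3 (edgeR adjusted p = 0.770), and a second gene name in the table marks another copy of PSMC4, so its count is uncertain.

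Of 41 translation initiation and elongation factors 4 rose and 3 fell. EIF5 (0.47), which guides start codon selection, EIF4A2 (0.39), EIF2B5 (0.34) and EIF3A (0.18) rose, and EEF1A1, PABPC1 and EIF4G2 fell by 0.10 to 0.20. Only 1 rose and 0 fell without the replicate block, and with the stricter stable genes 0 and 0. EIF4A2 did not pass without replicate 2 (edgeR adjusted p = 0.153), nor EIF4G2 without replicate 1 (−0.091, edgeR adjusted p = 0.211). The list's median of −0.06 became 0.02 with the stricter stable genes, where that of all genes tested was 0.11. Of 18 tested cytosolic aminoacyl-tRNA synthetases 0 rose and 0 fell in this fit (2 fell with TMM scaling), with values between −0.14 (QARS1) and 0.32 (CARS1). Tubulin mRNAs, which ribosomes are known to help destroy when free tubulin is in excess, gave 0 higher and 1 lower of 11 tested. TUBA1A fell by 0.27, which did not pass without replicate 2 or 3 (edgeR adjusted p = 0.206 and 0.422), and all 11 values lay below 0.

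Genes of cell division held an intermediate place in the main fit. Of 38 tested mitosis and G2/M genes 14 rose and 0 fell, with a median of 0.15. Only 3 rose without the replicate block, 7 with DESeq2 and 2 with the stricter stable genes. FBXO5, an inhibitor of the anaphase-promoting complex, had 24.2, 31.9 and 15.4 counts in T and 88.9, 94.2 and 60.7 in TCHX (log2 1.78). The kinase WEE1 rose by 0.76 and the kinetochore proteins CENPE and CENPF by 0.51 and 0.33. CCNB1, CDK1 and CDC20 gave 0.09, 0.00 and 0.06. In the replication and repair list 3 of 35 rose (BRCA2 by 0.48, TOP2A by 0.33 and RFC1 by 0.29) and 1 fell (RPA1 by 0.29), with a median of 0.04 that equals that of all genes to 2 decimals. RAD18 gave −0.03.

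Individual mRNAs of other pathways stood out from lists that were otherwise still. AMD1, the labile decarboxylase of polyamine synthesis, had 1064, 1126 and 948.8 counts in T and 2357, 2531 and 2027 in TCHX (log2 1.14 ± 0.07, edgeR adjusted p = 2.69e-19), and it was the only riser of 11 polyamine genes. OAZ1, the antizyme, fell by 0.24. XBP1 rose by 0.72, HERPUD1 by 0.48 and HSPA5 by 0.20, while 4 of the 18 tested genes of the unfolded protein response fell, EDEM1 by 0.58 among them. SOX10 and MITF, the transcription factors of the pigment lineage, rose by 0.89 and 0.53. SOX10 had 1369, 1464 and 1649 counts in T and 2622, 2893 and 2770 in TCHX.

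Of 13 tested cytosolic heat shock proteins 1 fell (HSPA8) and 1 rose (DNAJB1), with a median of −0.03. HSPA8, the constitutive HSP70 chaperone, had 7040, 6381 and 3796 counts in T and 3712, 4617 and 2130 in TCHX, falling in each replicate by 0.74 in the fit, with an adjusted p of 0.087 without the block. DNAJB1, an HSP40 co-chaperone, rose by 0.64. The largest falls by the naming rule were FABP7 (−1.37), a fatty acid binding protein of neural crest cells, C2orf76 (−1.22), HSPA2 (−1.20), PSMC4 (−1.20), MYO3B (−1.18) and B4GALT5 (−1.04). B4GALT5, which makes lactosylceramide, had 282.8, 358 and 281.9 counts in T and 161.9, 130.5 and 158.2 in TCHX. C2orf76 did not pass without replicate 1 or 3, nor MYO3B without replicate 2 or 3 (edgeR adjusted p from 0.0635 to 0.195).

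The same libraries can be set against the level at 0 h, taken in each replicate as the mean of its T and TCHX libraries. Among 11895 genes with a mean 0 h level of at least 10 normalised counts, the median mRNA kept 72.0% of its level after 3 h in T and 73.2% in TCHX. For the 1522 of them called higher the medians were 43.3% and 70.9%, which brought them near the median of all genes. For the 347 higher by more than 1.5-fold they were 17.8% and 61.7%, and for the 488 called lower 82.9% and 68.8%. These shares use the libraries that made the calls and are given as a description. DUSP6 kept 1.31% ± 0.34 (SD, n = 3) in T and 35.6% ± 5.19 in TCHX. HES1 kept 4.01% ± 1.13 and 28.4% ± 4.61, and MCL1 9.17% ± 3.07 and 24.3% ± 4.58. These mRNAs were still lost in large part when cycloheximide was present. GADD45B kept 3.62% ± 3.81 and 82.9% ± 18.7, BCL3 23.2% ± 3.11 and 86.6% ± 5.56, and GADD45A 26.7% ± 4.96 and 77.6% ± 14.7. In the latter the TCHX level stayed close to that at 0 h.

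**Figure D4:**
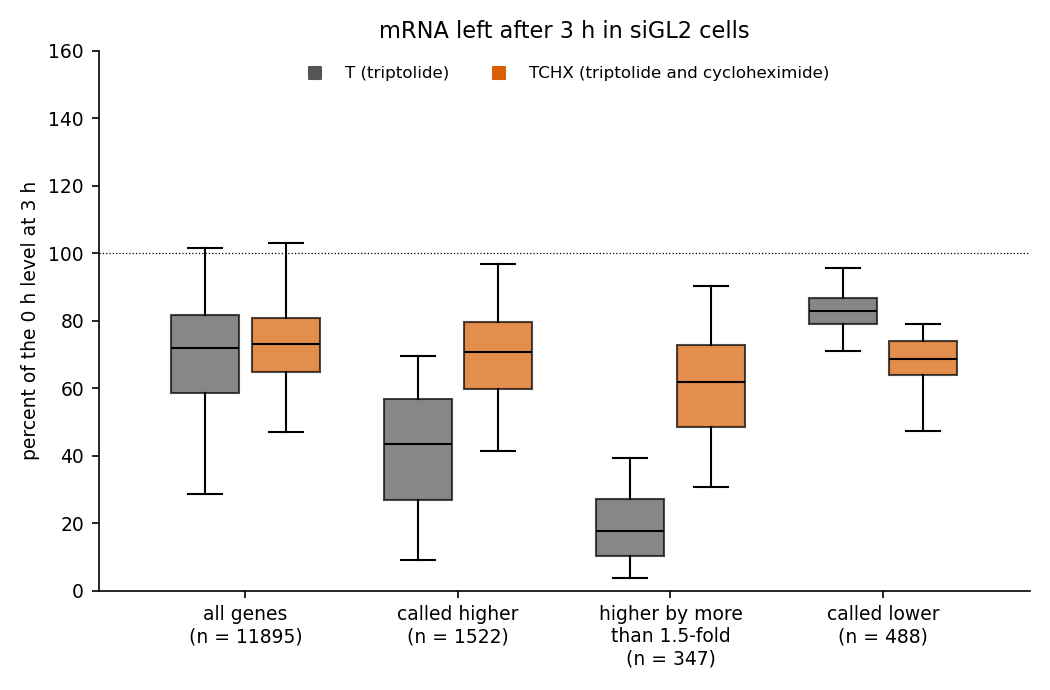
Percent of the 0 h level present at 3 h in T (grey) and TCHX (orange) for all genes with at least 10 normalised counts at 0 h and for the called classes, with boxes at the quartiles, lines at the medians and whiskers at the 5th and 95th percentiles. The mRNAs higher by more than 1.5-fold lie at a median of 17.8% in T and 61.7% in TCHX.

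At 0 h the arms hardly differed, which sets the background of this comparison. There were 5 calls (2 higher, 3 lower) and 624 genes at an unadjusted p under 0.05, and without the replicate block 0 calls and 238 genes. None of the 5 was called at 3 h.

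The effect was then sought in libraries that the 3 h comparison in siGL2 cells did not use. At 5 h, in other cultures of the same cells, 1539 genes were higher in TCHX (13.0%) and 229 lower (1.93%). Of 1493 genes called higher at 3 h and tested at both times, 1039 were called higher at 5 h, which is 69.6% of the 3 h list and 68.0% of the 5 h list. Of the 491 falls at 3 h, 90 were also falls at 5 h, which is 18.3%. The rise was larger at 5 h for GADD45B (6.60), CCNL1 (3.44), PHLDA1 (3.15), SOX10 (2.30) and XBP1 (2.39). It was smaller for DUSP6 (2.98) and IER2 (1.31). MYC (1.12), NFKBIA (1.72) and IER5 (−0.04) did not pass the test at 5 h (edgeR adjusted p = 0.339, 0.0893 and 0.975). HSPA8 gave −1.82. DNAJB1, which was higher in TCHX at 3 h, was lower at 5 h (−0.98, edgeR adjusted p = 0.000343). The difference between the times was not tested.

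Untransfected A375 cells kept for 18 h in fresh medium with glutamine (pQ) received the same drugs, and their libraries are separate from those of siGL2 cells. In pQ cells at 3 h, 1269 genes were higher (10.3%) and 209 lower (1.70%). Of 1515 genes that rose in siGL2 cells and were tested in both, 909 were called higher in pQ cells, 60.0% of the siGL2 list and 72.5% of the pQ list, against 10.6% of all genes tested in both. A positive value in pQ cells was found for 1454 of the 1515, and 319 of 342 genes higher by more than 1.5-fold were called. For the falls the overlap was 45 genes, 9.15% of the 492 falls of siGL2 cells and 21.8% of those of pQ cells. Of the largest falls named above, HSPA2 (−0.88) and PSMC4 (−1.35) passed in pQ cells (edgeR adjusted p = 0.0252 and 0.0499996). FABP7 (0.02), C2orf76 (−0.36), MYO3B (−0.51) and B4GALT5 (−0.03) did not. The direct test of the difference given below called none of these falls. Among the rises, DUSP6 changed by 4.598, GADD45B by 4.49, PHLDA1 by 2.198 and JUN by 3.28 in pQ cells. The pQ libraries that received triptolide alone took no part in the calls of siGL2 cells. In them the median mRNA kept 64.3% of its 0 h level, the mRNAs called higher in siGL2 cells 41.6% and those higher by more than 1.5-fold 18.3%. Less than 50% was left for 67.1% of the former, 97.4% of the latter and 22.8% of all genes.

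**Figure D5:**
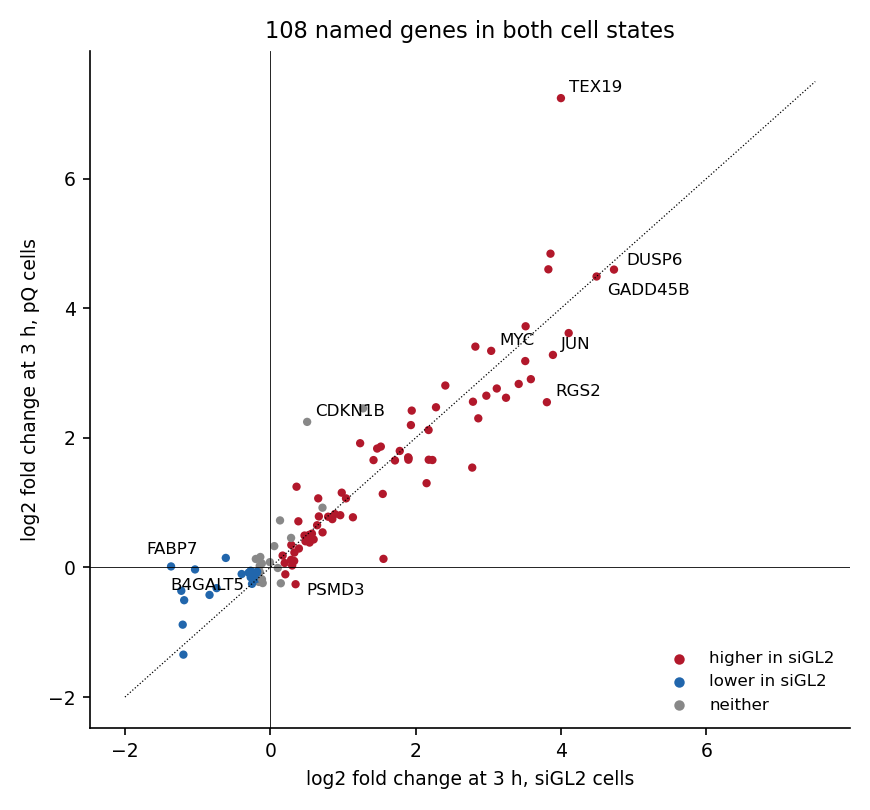
Log2 fold change of TCHX against T at 3 h in pQ cells (vertical) against that in siGL2 cells (horizontal) for the 108 named genes, coloured by the call in siGL2 cells, with a dotted line where both are equal. TEX19 (4.00 in siGL2 and 7.24 in pQ cells) and CDKN1B (0.51 and 2.25) lie above the line, and RGS2 (3.81 and 2.55) lies below it.

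A direct test of the difference between the cell states called 7 of 12795 genes, of which 3 had a larger value in siGL2 cells and 4 a smaller one, and 1069 genes were at an unadjusted p under 0.05. Without the replicate block 0 genes were called and 409 were at that p.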

How the data were processed

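Cytoplasmic RNA of A375 cells was sequenced as QuantSeq 3′ libraries. Per the labels and the study's methods, the authors trimmed reads (fastp 0.20.1), mapped them to GRCh38 (p13, HISAT2 2.2.1) and counted them per gene (HTSeq 0.13.5). The deposited values are raw counts. No molecular identifiers are stated, so counts may include PCR copies. Mitochondrially encoded mRNAs and spike-ins were not analysed here.

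Size factors came from genes stable by the study's rule over 36 siRNA libraries (CPM above 0.2 at 0 h and at least 1.1 times higher later). TCHX and T were compared with edgeR 4.0.16 (filterByExpr, quasi-likelihood, Benjamini-Hochberg, R 4.3.3), with replicate as a block because the study computes its index within replicates. Same-numbered libraries deviated together with r of 0.04, 0.27 and 0.39, so the data alone do not establish pairs. Tests were checked on simulated counts. Alternatives included DESeq2 1.42.0.

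The comparison and the 30 gene lists were chosen with earlier results of these data known. Named genes were the 12 largest rises and 6 largest falls with arms apart and at least 50 counts, the 6 smallest p-values, the 3 smallest p-values per list, and 14 known short-lived or decay-regulated mRNAs. Other list members were chosen after their values were seen. Some genes and lists are not reported here. GENCODE v44 matched 11376 of 12121 genes, and 10700 had coding and 3′UTR sequence. Coding length was that of the canonical transcript, and the 3′UTR was the longest annotated for the gene.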

Additional observations from a re-analysis of the deposited data

Results flagged for a closer look

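The cycloheximide effect at 3 h differed between siGL2 and pQ cells in 7 genes by the interaction test (edgeR, threshold 0.05, replicate block). CDKN1B, the p27 inhibitor of cyclin-dependent kinases, gave 0.51 in siGL2 cells and 2.25 in pQ cells, a log2 difference (siGL2 minus pQ) of −1.73. PSMD3, a proteasome cap subunit, gave 0.35 and −0.26, a difference of 0.61. Another 4 were CDKN1A (−0.67 and 0.35), CD9 (−0.60 and 0.35), MRFAP1L1 (0.94 and 0.18) and TRNF (−0.26 and −0.92), named here after their values were seen. Without the replicate block the adjusted p was at least 0.886 for each of the 7. Transfection, time before the drugs and medium change differed between the cell states together and cannot be told apart.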

How the results depend on the processing

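Rises and falls were recounted under each alternative. Leaving out 1 replicate gave 934 to 1372 rises and 178 to 488 falls, against 1527 and 493. Without the replicate block there were 791 and 27, and without the block and with TMM scaling, an added choice, 765 and 125. TMM alone gave 1315 and 924, the 8 genes stable at both times 791 and 14, no filter on low counts 1476 and 468, DESeq2 965 and 156, all 18 siGL2 libraries 600 and 10, the 0 h difference subtracted 845 and 188, and a test against 1.5-fold 350 and 5. Rises called in the main fit and in all 9 alternatives other than the filter and the 1.5-fold test numbered 465, and falls 5. The overlap with pQ cells was 909 genes with the replicate block, 499 without it and 801 with TMM. The 5 calls at 0 h and the 7 differences between cell states both became 0 without the replicate block. At 5 h, leaving out replicate 3 gave 1619 calls against 1768. For the 108 named genes the call stayed the same in 81 without the block, 100 with TMM, 96 with DESeq2, 75 with genes stable at both times and 71 with 18 libraries. Reversals were seen only in LUM, PDGFRA, FAP and TBL2, none of them called. With the 0 h difference subtracted these were −0.12 for LUM, 0.11 for PDGFRA, −0.12 for FAP and 0.051 for TBL2. Leaving out each replicate gave −0.14 to 0.55 for LUM, −1.15 to 0.40 for PDGFRA, −0.25 to 0.23 for FAP and −0.12 to 0.17 for TBL2. TBL2 also gave 0.075 with genes stable at both times and 0.018 with 18 libraries. The cause was not tested. Depth limits the scarce mRNAs, where a T library can hold 0 reads.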

Other observations

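Circadian clock genes gave 4 higher and 0 lower of 11 tested (DESeq2 called 3 and 0, and 1 was lower at an unadjusted p under 0.05), and their median was 0.35 on the log2 scale. NFIL3 had normalised counts of 19.1, 3.31 and 3.55 in T and 57.0, 60.6 and 46.7 in TCHX (log2 2.78), and the nuclear receptor NR1D1 and the activator TEF rose by 2.15 and 2.23. PER1 rose by 0.86, and CRY1, CLOCK and PER2 gave −0.43, −0.04 and 0.30 without passing the test. Of 14 G1 cyclins and CDK inhibitors 2 rose, and both, CCNT1 (0.80) and CCNT2 (1.04), belong to the transcription elongation factor P-TEFb. CCND1, CDK4 and CDK6 gave −0.03, −0.07 and −0.08.

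Of 8 pigment lineage genes 3 rose, the third being CSPG4 by 0.17, which did not pass without any 1 of the replicates. Of the markers of other skin cells, 1 keratinocyte gene and 3 fibroblast genes were tested and 0 were called by edgeR, with 1 at an unadjusted p under 0.05 (KRT10, −0.14). Replication-dependent histone genes, whose mRNAs mostly lack a poly(A) tail, gave 2 higher and 1 lower of 18 tested. H4C3 rose by 0.30, H1-4 by 1.56 and H2BC12 fell by 0.39, and all 3 missed the threshold without the replicate block.

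By RNA class in the RefSeq annotation, 1439 of 10668 protein-coding genes (13.5%) and 30 of 765 long noncoding RNAs (3.92%) were called higher. Over all tested genes of each class, called or not, the median log2 fold changes were 0.034 and 0.050. The difference between the shares was not tested. An uncharacterised noncoding locus among the smallest p-values was at 143.7% ± 42.7 (SD, n = 3) of its 0 h level in T and at 1114% ± 248.7 in TCHX, with triptolide present in both arms.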
